A study of Mus musculus with 23 samples.

Results

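The 9 genes described here encode translation elongation factors and a few proteins whose messages are controlled alongside them. They are Eef1a1, Eef2, Eef1b2, Eef1d, Eef1g, Tpt1, Npm1, Pabpc1 and Eif3e, taken by symbol from a table of 22488 gene symbols, and all 9 were found. During elongation, the factor encoded by Eef1a1 carries each charged tRNA to the ribosome, the complex encoded by Eef1b2, Eef1d and Eef1g recharges that factor with GTP, and the factor encoded by Eef2 moves the ribosome on by a codon. The messages of these genes, like those of cytosolic ribosomal proteins, belong in mammals to the class that starts with a run of pyrimidines and whose translation is switched by nutrient signalling through mTOR.

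The study made 23 poly(A) RNA libraries from mouse material with EASY-RNAseq, a low-input method that primes cDNA with oligo-dT and adds adapters by Tn5 tagmentation. Both materials are labelled strain C57, aged 6 to 18 weeks, with no treatment or genetic change given. The 12 T cell libraries came from spleen T cells, CD3+ by the series design, at 100, 500, 1000 and 10000 cells (n = 3 each). The 11 RNA libraries came from diluted RNA at 0.1 ng (n = 2) and at 0.5, 1 and 5 ng (n = 3 each), which the series design describes as spleen RNA and the sample labels as RAW 264.7, a macrophage line. Library totals ran from 1737067 to 7908638 counts, and since nothing ties the replicates to separate mice or dilutions, p-values may reflect technical spread only.

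Marker genes described both materials before the members were compared. The RNA libraries held 3.72% to 4.81% of counts in 16 B cell genes, 0.407% to 0.579% in 14 neutrophil genes, 0.274% to 0.476% in 11 erythroid genes and 0.312% to 0.394% in 14 macrophage genes, so the markers of several spleen cell types were present and the material is called RNA here. The T cell libraries held 0.650% to 1.18% in 20 T cell genes, against 0.259% to 0.293% in RNA. Replicate 3 of the 100-cell group stood apart. It held 2.02% of counts in the B cell genes, against 0.125% to 0.337% in the other 11 T cell libraries. Neutrophil, erythroid and macrophage genes took 0.229%, 0.166% and 0.158% there, against at most 0.00711%, 0.0286% and 0.0194%. Its T cell genes, at 0.650%, were the lowest of the T cell libraries. Summed over 4 Y-linked genes it held 184 CPM (counts scaled to a library total of 1000000), against at most 4.33 CPM. The RNA libraries held 287 to 456 CPM in the Y-linked genes, so the materials differed in these too, and their part in the comparisons of materials was not tested. Gm10800, Gm10801, Gm21738 and Lars2 together took 5.51% to 11.5% of the counts in T cell libraries, 4.93% to 5.42% at 0.1 ng and 1.41% to 2.44% at 0.5 to 5 ng. In bulk libraries like these, fewer cells of a type and less RNA per cell cannot be told apart.

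Promoter sequences from RefSeq (GRCm38.p6) were matched for 4 of the 9 members, and these 4 are shown because they are the ones matched. Each window runs from 50 bases before the annotated start to 30 bases from it onward, on the gene's strand, with the motif TATANAA in capitals where it occurs. The windows lie at chr9:78481695-78481774 (minus strand) for Eef1a1, chr10:81176581-81176660 (plus) for Eef2, chr1:63176781-63176860 (plus) for Eef1b2 and chr14:75845206-75845285 (plus) for Tpt1.
Eef1a1: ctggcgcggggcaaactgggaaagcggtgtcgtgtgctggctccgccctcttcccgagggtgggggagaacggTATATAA
Eef2: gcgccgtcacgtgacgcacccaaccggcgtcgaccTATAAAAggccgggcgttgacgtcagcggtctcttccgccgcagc
Eef1b2: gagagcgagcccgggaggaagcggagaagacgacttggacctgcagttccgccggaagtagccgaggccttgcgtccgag
Tpt1: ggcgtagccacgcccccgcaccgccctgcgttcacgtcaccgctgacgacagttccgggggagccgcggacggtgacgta

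The motif was found on the gene strand of Eef1a1, starting at base 24 counted from the annotated start, and of Eef2, starting 15 bases before it. It was not found on either strand of the Eef1b2 and Tpt1 windows. Of 32851 promoters cut to the same 80 bases, 2.52% held it on the gene strand and 3.47% on either strand. Annotated starts can lie away from the site where transcription begins, so these distances describe the annotation.

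Several members have processed pseudogenes, copies of the message put back into the genome, which limits how surely reads can be assigned. Of all 50-base stretches of the reference transcript (GENCODE release M21), 64.3% in Eef1g, 59.2% in Eef1a1, 42.0% in Tpt1, 40.9% in Npm1 and 20.7% in Pabpc1 also occurred in a transcript of another gene. In Eif3e it was 321 of 1457 stretches. The share was 7.86% in Eef2, 5.98% in Eef1b2 and 5.84% in Eef1d. A 60-base coding stretch of Eef1a1 (chromosome 9) and of Eef1g (chromosome 19) is set against its closest pseudogene, on chromosome 2 and chromosome 7, with the 1 base that differs in capitals.
Eef1a1: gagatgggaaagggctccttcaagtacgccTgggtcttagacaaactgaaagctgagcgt
Gm13456: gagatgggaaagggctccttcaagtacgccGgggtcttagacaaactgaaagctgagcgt
Eef1g: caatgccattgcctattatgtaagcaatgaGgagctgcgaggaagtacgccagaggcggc
Gm4366: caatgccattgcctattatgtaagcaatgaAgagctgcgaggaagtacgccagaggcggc

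None of the pseudogenes found in this way is a row of the count table, so the counts of Eef1g, Eef1a1, Tpt1 and Npm1 are the less certain ones. Exons of Eef1d overlap those of Naprt on the same strand over 277 bases, and Naprt averaged 3.97 CPM. Exons of Eef1b2 overlap those of Ndufs1, on the opposite strand, over 9 bases.

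The 9 genes together were abundant in every library. In T cells their summed share of counts was 1.90% ± 0.125 (SD, n = 3) at 100 cells, 2.12% ± 0.0155 at 500, 2.23% ± 0.0209 at 1000 and 2.29% ± 0.0161 at 10000. In RNA it was 1.52% ± 0.0373 (n = 2) at 0.1 ng, 1.79% ± 0.0266 at 0.5 ng, 1.95% ± 0.0343 at 1 ng and 2.04% ± 0.00376 at 5 ng (n = 3 each). The share was higher at each larger input in both materials, and higher in T cells than in RNA at inputs of the same rank. Eef1a1 and Eef2 made up much of it, averaging 9784 and 5673 of a summed 22927 CPM at 10000 cells. Not every member followed the sum. Eef1b2, Eef1g, Tpt1, Npm1 and Eif3e averaged less at 10000 than at 1000 cells, and Eef1d, Eef1g and Eif3e less at 5 than at 1 ng.

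**Figure D1:**
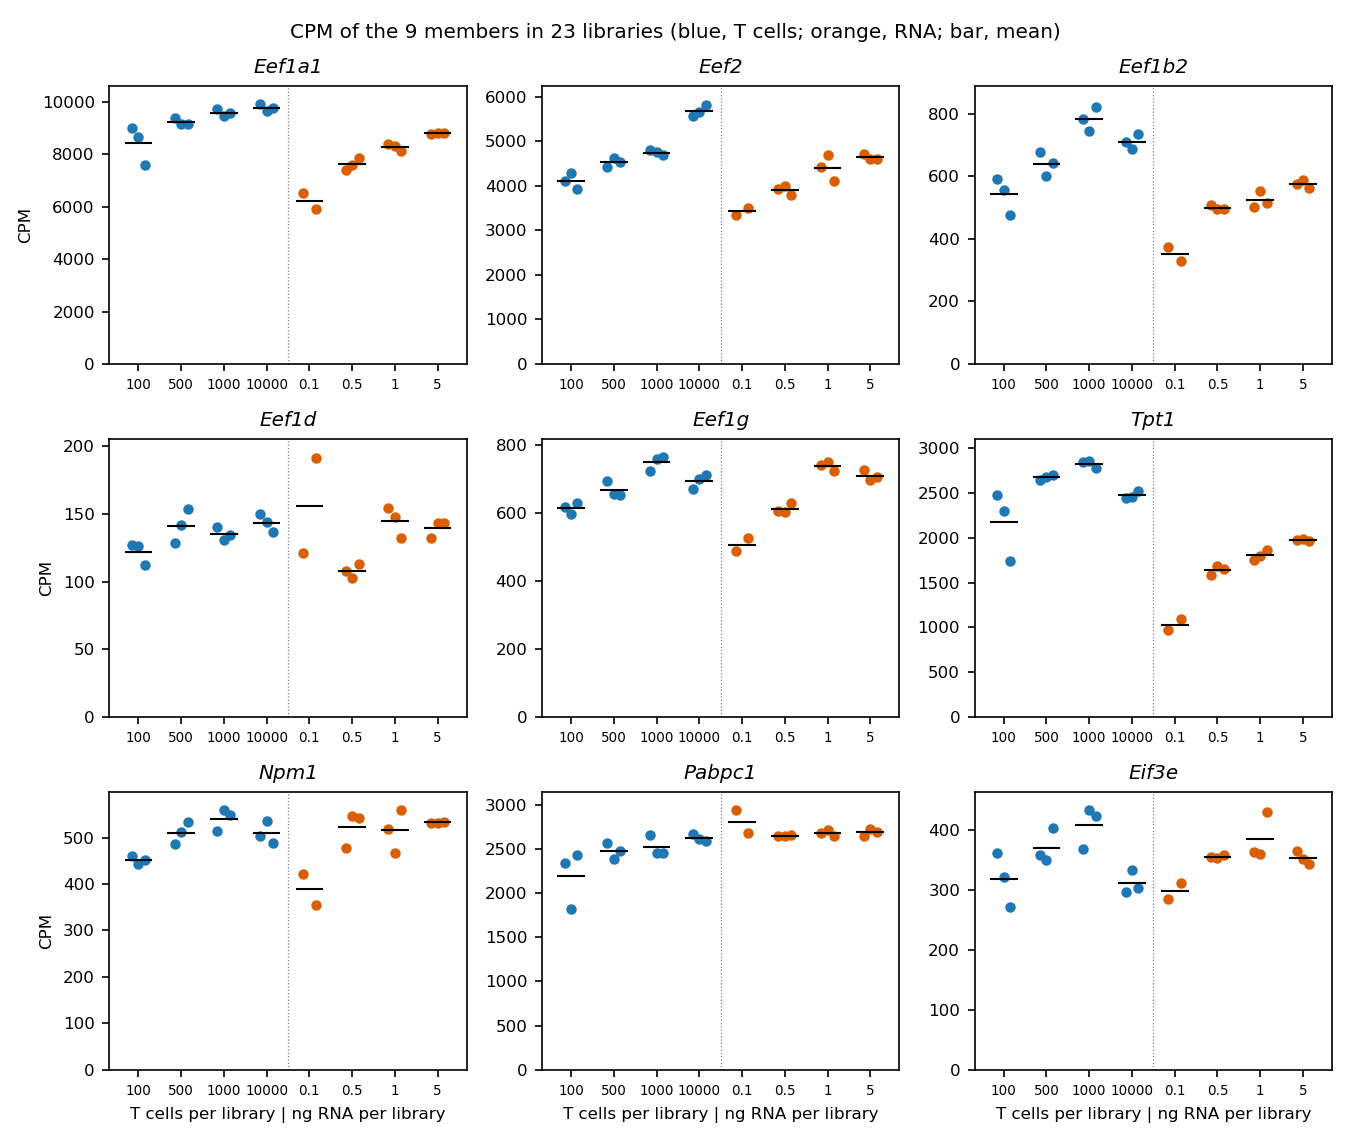
CPM of each member (vertical axis, from 0) by T cells or ng of RNA per library (horizontal axis); each point is a library and each bar a group mean. Tpt1 runs from 968 CPM at 0.1 ng to 2864 CPM at 1000 cells, while Pabpc1 stays between 2644 and 2938 CPM in all RNA libraries.

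Levels between the genes were set per kilobase of exon, since gene lengths differ. On that scale Eef1a1 was highest, with 3924 CPM per kilobase at 10000 cells and 3535 at 5 ng. Eef2 followed with 1707 and 1394, Tpt1 with 1042 and 831, and Pabpc1 with 401 and 411. Eef1b2 stood at 280 and 227, Eef1g at 267 and 273, Npm1 at 191 and 200, Eif3e at 46.3 and 52.6, and Eef1d at 22.1 and 21.5. The order of Eef1b2, Eef1g and Npm1 changed between groups. Per kilobase of the reference transcript, Tpt1 stood above Eef2 at 10000 cells, with 2122 against 1837.

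The first question was how the members differed between T cells and RNA. T cells carried more Tpt1, Eef1b2 and Eef2 and less Eif3e than RNA at the highest inputs, and at lower inputs the excess of Tpt1 in T cells was larger. From 1000 to 100 cells Eif3e did not pass (adjusted p in edgeR 0.515, 0.747 and 0.886), and its mean CPM was higher in T cells. Eef2 did not pass at 1000 cells against 1 ng (adjusted p in edgeR 0.0995). Tpt1 encodes a small calcium-binding protein linked to growth and survival, also known as TCTP. At 10000 cells Tpt1 measured 2451, 2462 and 2529 CPM, and at 5 ng 1977, 1987 and 1967 CPM. All 3 T cell libraries were above all 3 RNA libraries, and the log2 fold change in edgeR's quasi-likelihood test was 0.22 (SE 0.034, adjusted p = 1.79e-07).

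Eef2 measured 5561, 5642 and 5817 CPM at 10000 cells and 4715, 4592 and 4597 CPM at 5 ng. The groups did not overlap (log2 fold change 0.18, SE 0.0289, adjusted p = 2.67e-07). Eef1b2 encodes the subunit that swaps nucleotide on the tRNA-carrying factor, and it measured 709, 686 and 733 CPM at 10000 cells against 575, 586 and 563 CPM at 5 ng. These groups were apart too (log2 fold change 0.19, SE 0.046, adjusted p = 0.000305).

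Of the 9 members, 3 were higher and 4 lower in 10000 T cells, beside 56.0% of all 14425 genes called in either direction (28.7% higher, 27.3% lower), so calls among the members were no result in themselves. With library totals in place of TMM factors the split was 4 higher and 1 lower, and without the low-count filter 2 higher and 5 lower. Eif3e, a subunit of the initiation complex eIF3, measured 297, 334 and 304 CPM at 10000 cells and 365, 352 and 344 CPM at 5 ng. Its groups did not overlap (log2 fold change -0.29, SE 0.057, adjusted p = 1.23e-05). Eef1g measured 670, 701 and 713 CPM at 10000 cells and 728, 696 and 708 CPM at 5 ng. The other 3 lower members were Eef1g (log2 fold change -0.14), Npm1 (-0.18) and Pabpc1 (-0.15), with adjusted p of 0.00527, 0.00169 and 0.000129. Their CPM overlapped between the groups, and with library totals 0 of these 3 were called (adjusted p = 0.687, 0.338 and 0.527). That scaling moved the median of all genes from 0.03 to 0.15 (log2). Eef1a1 (9906, 9661 and 9784 CPM at 10000 cells, 8783, 8821 and 8834 CPM at 5 ng) did not pass, with an adjusted p of 0.184, although its CPM did not overlap, and it was higher with library totals (log2 fold change 0.16, adjusted p = 2.38e-07).

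At 1000 cells against 1 ng, 3 members were higher and 0 lower, beside 40.0% of all genes called (20.1% higher). Tpt1 measured 2848, 2864 and 2782 CPM at 1000 cells and 1756, 1794 and 1869 CPM at 1 ng. Its log2 fold change was 0.64 (SE 0.0472, adjusted p = 5.01e-11), with no overlap between the groups. Eef1b2 was also higher (log2 fold change 0.57, SE 0.0701, adjusted p = 3.94e-07), and so was Eef1a1 (0.20, SE 0.0334, adjusted p = 2.82e-05).

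At 500 cells against 0.5 ng, 5 members were higher and 0 lower, beside 37.1% of all genes called (19.0% higher). Tpt1 measured 2652, 2683 and 2704 CPM at 500 cells against 1583, 1686 and 1655 CPM at 0.5 ng. The log2 fold change was 0.70 (SE 0.0499, adjusted p = 1.49e-10), and the groups were again apart. Eef1b2 differed by 0.35 on the log2 scale (SE 0.0782, adjusted p = 0.00122), Eef1a1 by 0.26 (SE 0.0331, adjusted p = 1.36e-06) and Eef2 by 0.20 (SE 0.0396, adjusted p = 0.000324). Eef1d, another nucleotide-exchange subunit, differed by 0.38 (SE 0.146, adjusted p = 0.0445), and that call was lost when any of 5 of the 6 libraries was left out, with adjusted p up to 0.171.

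At 100 cells against 0.1 ng no member passed in edgeR, beside 0.0535% of all genes called. Tpt1 measured 2485, 2298 and 1740 CPM at 100 cells and 968 and 1094 CPM at 0.1 ng, with an adjusted p of 0.111. The groups did not overlap, and the lowest T cell value was replicate 3, the library rich in B cell, neutrophil, erythroid and macrophage genes. At an unadjusted p under 0.05, 4 members and 2049 of 13073 genes passed. DESeq2 called 1 member. Without replicate 3 of the 100-cell group, edgeR called 2 members, Tpt1 (log2 fold change 1.24, SE 0.132, adjusted p = 0.00184) and Eef1a1 (0.54, SE 0.0803, adjusted p = 0.00969). The share of all genes called in that fit is not given here, so the count of 2 is no result about the members as a set.

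**Figure D2:**
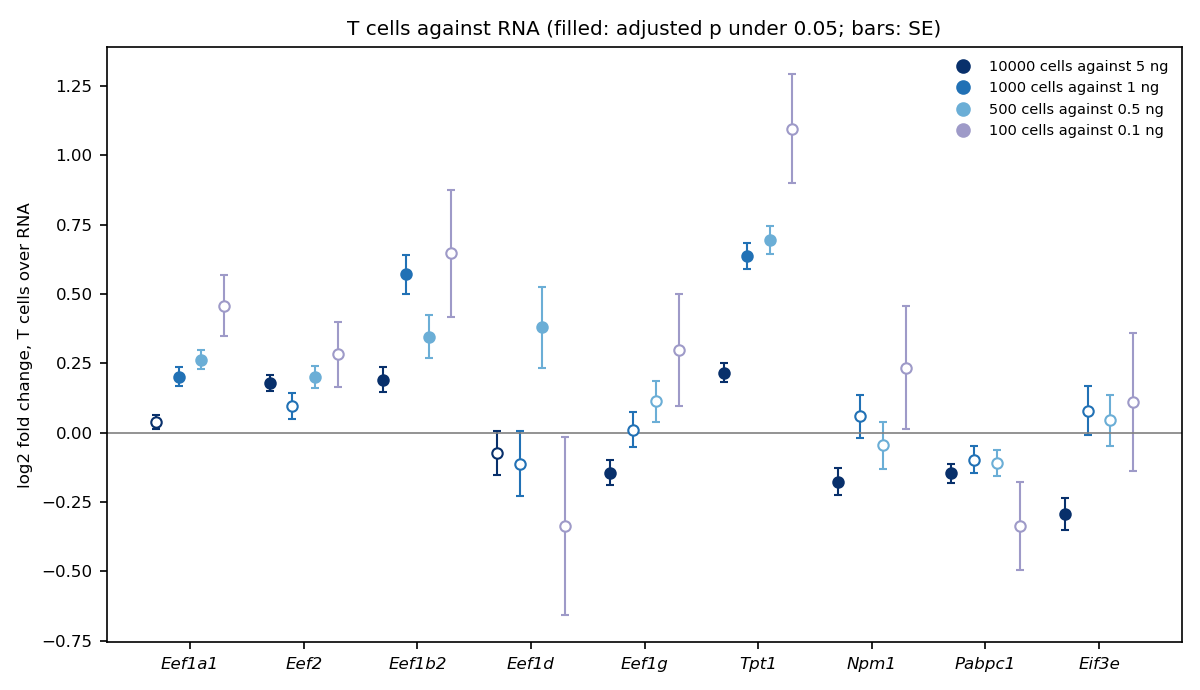
Log2 fold change of each member, T cells over RNA, at inputs of the same rank (bars, SE; filled symbols, adjusted p under 0.05 in edgeR). Tpt1 lies at 0.22, 0.64 and 0.70 in the 3 tiers where it was called, and Pabpc1 lies below 0 in all 4.

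The difference between materials at the lowest inputs was then tested against that at the highest inputs. For 18 of 79 cytosolic ribosomal protein genes the difference was higher at the lowest inputs in edgeR, and for 0 it was lower. The median over the 79 was 0.71 on the log2 scale, against 0.13 over all genes. Tpt1 alone of the members passed (difference of log2 fold changes 0.84, SE 0.162, adjusted p = 0.0320), beside 1.14% of all genes called (0.899% higher). That call was lost when any 1 library of the 10000-cell or the 5 ng group was left out, with adjusted p from 0.0905 to 0.120, and with DESeq2 size factors (0.0632) or library totals (0.0535). Without replicate 1 at 0.1 ng, the spread of the 1 library left in that group comes from the other groups, so its calls are not given here. Without replicate 3 of the 100-cell group 5 members passed, namely Tpt1 (1.07, adjusted p = 0.000233), Eef1a1 (0.54, adjusted p = 0.000890), Eef1b2 (0.59, adjusted p = 0.0156), Eef1g (0.48, adjusted p = 0.0251) and Eif3e (0.56, adjusted p = 0.0429). The share of all genes called in that fit is not given here, so the count of 5 is no result about the members as a set.

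The second question was what happened to the members as the RNA was diluted. Tpt1, Eef1b2, Eef1a1, Eef1g and Eef2 fell with less RNA, and Pabpc1 did not pass (adjusted p = 0.760 in edgeR). Library totals also differed, at 1737067 and 1962934 counts at 0.1 ng and 6841726 to 7908638 at 5 ng, and their part was not tested. Over all 11 RNA libraries, 5 of the 9 members rose with input and 0 fell, beside 5.68% of all genes called in either direction and 2.12% called as rising. Tpt1 rose by 0.52 on the log2 scale for each 10-fold more RNA (SE 0.0704, adjusted p = 0.000580). Eef1b2 rose by 0.39 (SE 0.0665, adjusted p = 0.00247), Eef1a1 by 0.30 (SE 0.0353, adjusted p = 0.000235), Eef1g by 0.30 (SE 0.0662, adjusted p = 0.0146) and Eef2 by 0.27 (SE 0.0389, adjusted p = 0.000770). All 5 calls were kept when any 1 of the 11 libraries was left out.

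**Figure D3:**
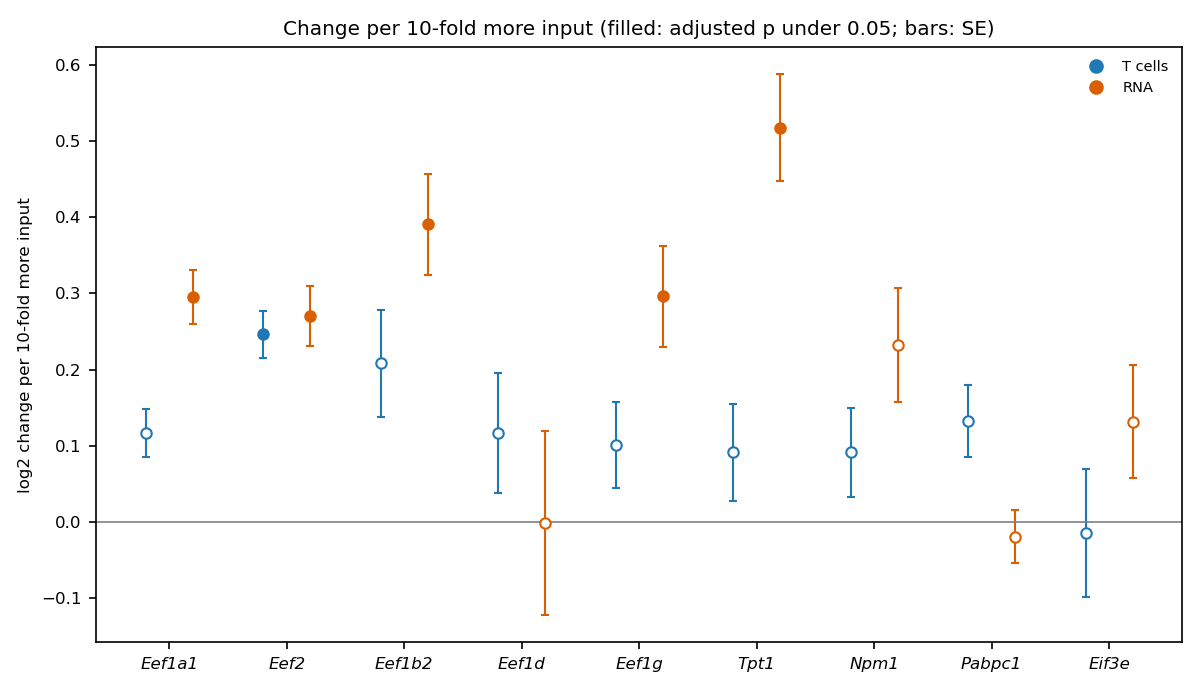
Log2 change of each member per 10-fold more input in T cells and in RNA (bars, SE; filled symbols, adjusted p under 0.05 in edgeR). In RNA 5 members are filled, from 0.27 for Eef2 to 0.52 for Tpt1, and in T cells only Eef2 is, at 0.25.

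At 0.1 ng, Tpt1 measured 968 and 1094 CPM, against 1977, 1987 and 1967 CPM at 5 ng. The groups were far apart, and in edgeR the log2 fold change was -0.98 (SE 0.0662, adjusted p = 0.00595). Eef1a1 measured 6507 and 5928 CPM at 0.1 ng, 7414, 7609 and 7866 at 0.5 ng, 8394, 8311 and 8121 at 1 ng and 8783, 8821 and 8834 at 5 ng. The 4 groups of Eef1a1 did not overlap, and each larger input was higher.

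At 0.1 against 5 ng, 6 members were lower and 0 higher, beside 11.2% of all genes called in either direction and 6.55% called as lower. Also lower, with 0 higher, were 4 of 16 B cell, 6 of 14 neutrophil, 5 of 11 erythroid and 6 of 14 macrophage genes, and their part in the result was not tested. Beside Tpt1 the lower members were Eef1b2 (log2 fold change -0.76), Eef1a1 (-0.55), Eef1g (-0.53), Npm1 (-0.50) and Eef2 (-0.48), with adjusted p from 0.00595 to 0.0292 in edgeR. Npm1, which encodes the nucleolar protein nucleophosmin, measured 422 and 356 CPM at 0.1 ng and 532, 532 and 534 CPM at 5 ng. All 6 calls were lost when any 1 of the 5 ng libraries was left out, with adjusted p from 0.138 to 0.167 and 0 or 1 of all genes called. Their log2 fold changes were then between -0.96 and -0.44. Without replicate 1 at 0.1 ng 8 members were lower and 1 higher, and without replicate 2 there were 8 lower, each with 1 library left at 0.1 ng that is assumed to vary like the 5 ng group; 7869 and 8075 of all genes were then called.

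At 0.5 against 5 ng, which uses the same 5 ng libraries, 6 members were also lower and 0 higher, beside 5.09% of all genes called and 2.21% called as lower. The log2 fold changes were -0.38 for Eef1d, -0.27 for Tpt1, -0.25 for Eef2, -0.22 for Eef1g, -0.21 for Eef1a1 and -0.21 for Eef1b2, with adjusted p from 6.38e-06 to 0.0255. Eef1a1, Eef2 and Tpt1 were called also with any 1 library left out. Eef1b2 and Eef1d lost their calls without any 1 of the 5 ng libraries, and Eef1g without replicate 1 or 3 at 5 ng, with adjusted p from 0.0605 to 0.165. With all 4 RNA groups in 1 fit, 3 members were called. Eef1d, which averaged 108 ± 5.14 CPM (SD, n = 3) at 0.5 ng and 140 ± 6.77 at 5 ng, measured 121 and 191 CPM at 0.1 ng (adjusted p = 0.746 against 5 ng). At 1 against 5 ng no member passed, beside 0.0238% of all genes called, with 4 members at an unadjusted p under 0.05 in edgeR and 0 called by DESeq2. Without replicate 3 at 1 ng, Eef1a1 and Tpt1 passed. How many of all genes reached that unadjusted p or passed in that fit is not given here, so neither is a result about the members as a set.

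Pabpc1 encodes the main cytoplasmic protein that binds poly(A) tails. It measured 2938 and 2675 CPM at 0.1 ng, 2644, 2645 and 2660 at 0.5 ng, 2677, 2710 and 2645 at 1 ng and 2647, 2724 and 2691 at 5 ng. These ranges overlapped in part, and the adjusted p at 0.1 against 5 ng was 0.846. Ratios of counts within a library do not use the library total. Pabpc1, the denominator, is itself a member that did not pass over the RNA inputs. The ratios therefore describe the same counts and are no separate test. Eef1a1 over Pabpc1 was 2.21 and 2.22 in the 0.1 ng libraries and 3.24 to 3.32 at 5 ng. Tpt1 over Pabpc1 was 0.369 ± 0.0561 (SD, n = 2) and 0.736 ± 0.00963 (n = 3). Both ratios were lower at 0.1 ng than in any 5 ng library. In 10000 T cells they were 3.73 ± 0.0401 and 0.946 ± 0.0292 (n = 3).

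**Figure D4:**
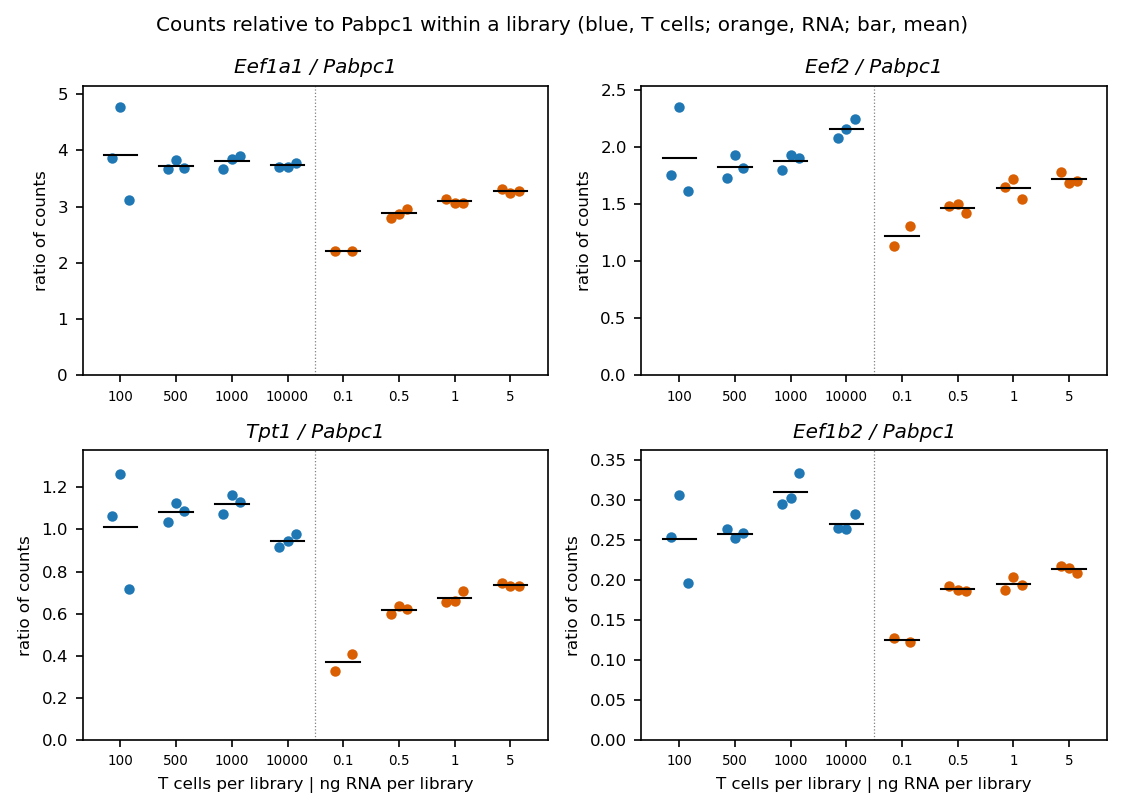
Counts of Eef1a1, Eef2, Tpt1 and Eef1b2 divided by those of Pabpc1 in the same library (vertical axis, from 0), by T cells or ng of RNA; each point is a library and each bar a group mean. In RNA the mean Tpt1 ratio is 0.369 at 0.1 ng and 0.736 at 5 ng.

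The third question was the effect of fewer T cells, where Eef2 changed most clearly. Eef2 measured 4113, 4288 and 3932 CPM at 100 cells, 4429, 4612 and 4523 at 500, 4794, 4760 and 4679 at 1000 and 5561, 5642 and 5817 at 10000. No 2 of these 4 groups overlapped. Eef2 rose by 0.25 on the log2 scale for each 10-fold more cells (SE 0.0311, adjusted p = 0.000720), the 1 member called, beside 0.76% of all genes called (0.476% as rising). Without replicate 3 of the 100-cell group Eef1a1 was called too (adjusted p = 0.0381). With all T cell libraries, 5 of 11 neutrophil, 1 of 16 B cell and 1 of 10 erythroid genes fell with more cells and 0 rose. Of 20 T cell genes 2 rose and 0 fell, and of 14 macrophage genes 0 were called. The part of these markers in the slopes was not tested.

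At 500 against 10000 cells, 2 members were lower and 0 higher, beside 3.21% of all genes called (2.46% lower). Markers of other cells moved alongside: 7 of 16 for B cells and 3 of 10 tested for erythroid cells were higher, 4 of 12 macrophage genes, 2 of 11 neutrophil genes and 3 of 20 T cell genes were lower, and Igkc measured 1185 to 1233 CPM at 500 cells against 99.0 to 121 CPM at 10000. Their part in the result was not tested. Eef2 differed by -0.34 on the log2 scale (SE 0.0296, adjusted p = 5.66e-08). Eef1a1 differed by -0.09 (SE 0.0228, adjusted p = 0.0222), a call lost without replicate 1 at 10000 cells (adjusted p = 0.0511) and in DESeq2 (adjusted p = 0.0619). At 1000 against the same 10000-cell libraries, 2 members were higher and 1 lower, beside 3.27% of all genes called (1.23% higher, 2.04% lower). There 7 of 10 erythroid and 2 of 13 macrophage genes were higher and 0 lower. Lower, with 0 higher, were 1 of 16 B cell and 2 of 9 neutrophil genes. Of 20 T cell genes 2 were higher and 3 lower, and the part of all these markers was not tested. Eef2 was lower (log2 fold change -0.24, SE 0.0289, adjusted p = 2.98e-07), whereas Tpt1 (0.21, SE 0.0362, adjusted p = 0.000338) and Eif3e (0.41, SE 0.0786, adjusted p = 0.00108) were higher.

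Eif3e measured 369, 433 and 424 CPM at 1000 cells and 297, 334 and 304 CPM at 10000 cells, with no overlap. All 3 calls at 1000 cells were lost when the 4 T cell groups shared 1 fit, with adjusted p of 0.0563 for Eef2, 1.00 for Tpt1 and 0.629 for Eif3e. That fit includes replicate 3 of the 100-cell group.

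At 100 against 10000 cells 0 members and 0.0% of all genes were called in edgeR, with 4 members and 1686 of 14099 genes at an unadjusted p under 0.05, while DESeq2 called 1 member. Eef2 came nearest, with an adjusted p of 0.0709. Without replicate 3 of the 100-cell group, 2 members were lower, beside 2.36% of all genes called and 1.79% called as lower. These were Eef2 (log2 fold change -0.46, SE 0.0375, adjusted p = 0.00443) and Eef1a1 (-0.17, SE 0.0293, adjusted p = 0.0297). In replicate 3 itself, Tpt1 measured 1740 CPM and Eef1a1 7580 CPM, the lowest of the 12 T cell libraries in both cases.

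Across the 23 libraries the members fell into a group that moved together and some that did not. Pearson's r of log2 CPM was 0.956 between Eef1a1 and Eef1b2, 0.941 between Eef1a1 and Tpt1 and 0.935 between Eef1b2 and Tpt1. Pabpc1 gave -0.266 with Eef1a1 and -0.437 with Tpt1, and Eef1d gave 0.0823 with Eef1a1. The 5 genes outside the list most like the members' mean, by r over the same libraries, were Rps14 (0.961), Rack1 (0.949), Rpl9 (0.945), Rpl8 (0.944) and Rpl4 (0.940). All 5 encode ribosomal proteins or, for Rack1, a scaffold bound to the small subunit. The libraries share material, input and scaling, so these values are descriptions.

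The 79 cytosolic ribosomal protein genes were also followed in diluted RNA. At 0.1 against 5 ng 73 of 79 were lower and 0 higher (median log2 fold change -0.84, against -0.07 over all genes), and at 0.5 against 5 ng 64 were lower and 0 higher (median -0.31). Over the RNA dilutions 75 of 79 rose with input and 0 fell. Of all genes, 6.55% were lower at 0.1 ng, 2.21% were lower at 0.5 ng and 2.12% rose over the dilutions. Leaving out any 1 of the 5 ng libraries took the 73 to 0 but left the median between -0.82 and -0.81. With all RNA groups in 1 fit the 64 became 16. In T cells 0 of 79 were called over the cell inputs (1 without the low-count filter), beside 0.76% of all genes. At 1000 against 10000 cells 10 were higher (0 with all T cell groups in 1 fit) and 0 lower, beside 1.23% of all genes higher. Between materials, 58 were higher and 0 lower in 500 T cells than in 0.5 ng, beside 19.0% of all genes higher. In 1000 T cells 40 were higher and 3 lower than in 1 ng, beside 20.1% of all genes higher. In 10000 T cells 14 were higher and 30 lower than in 5 ng, beside 28.7% of all genes higher and 27.3% lower. The split of 14 and 30 turned with the scaling, to 30 higher and 14 lower with library totals. Without the low-count filter it was 4 higher and 43 lower.

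Gene length was set beside these changes. The 5 members called lower at both 0.1 and 0.5 ng had exon lengths from 2380 bases (Tpt1) to 3324 bases (Eef2), and Pabpc1 and Eif3e, called at neither, span 6540 and 6719 bases. The other two went against that order. Eef1d, at 6488 bases, was lower at 0.5 ng (log2 fold change -0.38), and Npm1, at 2665 bases, was called at 0.1 ng but not at 0.5 ng (-0.03, adjusted p = 0.823). On reference transcripts the order did not hold, since Pabpc1 and Eif3e span 2817 and 1506 bases there and Eef2 3089. The ribosomal protein genes spanned a median of 1770 bases of exon. Among all genes, those that rose with RNA input spanned a median of 3008 bases and those that fell 6510, against 4492 over all genes tested, and Spearman's rho between slope and length was -0.178 across 13932 genes, which are not independent. The part of length in the members' changes was not tested.

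Other genes of the translation machinery were also followed in the diluted RNA, where 6.55% of all genes were lower at 0.1 against 5 ng. Of 40 initiation genes tested at 0.1 against 5 ng, 11 were lower and 0 higher (median log2 fold change -0.41), or 8 lower and 1 higher with library totals. They included, named after their values were seen, the eIF3 subunits Eif3d (-1.20), Eif3k (-1.18) and Eif3m (-1.12) and the helicase Eif4a1 (-0.75). Of 15 further elongation genes, Dph6, which acts in making the diphthamide residue of eEF2, was higher (1.83) and Hbs1l, a ribosome rescue factor, lower (-1.30). Among 5 mitochondrial elongation genes, Tufm (-1.49) and Gfm2 (-1.29) were lower, and among 22 tRNA synthetases Eprs (-0.97), Nars (-0.83) and Rars (-0.80) were lower. All of these list calls at 0.1 against 5 ng were lost when any 1 of the 5 ng libraries was left out. Of 5 release and recycling and 8 poly(A) binding genes 0 were called in edgeR, against 1 of each in DESeq2. At 0.5 against 5 ng, 1 of 40 initiation genes was higher and 1 lower (median -0.05), beside 2.21% of all genes lower. Of 15 further elongation genes 1 was lower there and 0 higher. Among 22 tRNA synthetases, 5 mitochondrial elongation and 8 poly(A) binding genes, 1 of each list was higher and 0 lower.

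Between 10000 T cells and 5 ng RNA, the counts of the lists depended on the scaling and stand beside 28.7% of all genes higher and 27.3% lower. Of 40 initiation genes 6 were higher and 16 lower, or 6 and 7 with library totals. Eif4ebp1, an inhibitor of the cap-binding factor, was lower in T cells, at 5.45 ± 3.72 against 19.8 ± 1.64 CPM (SD, n = 3 each; log2 fold change -1.99, SE 0.298, adjusted p = 5.93e-08), and Eif4e, the cap-binding factor, was lower by -0.73. The relative Eif4ebp2 (0.33) and Eif2s3x, an eIF2 subunit (0.41), were higher. Of 22 tRNA synthetases 0 were higher and 6 lower (2 and 4 with library totals), a share of lower genes equal to that over all genes, with Vars at 268 ± 3.40 against 485 ± 16.6 CPM (log2 fold change -0.97, SE 0.0547, adjusted p = 6.65e-24) and Aars lower by -0.88. Of 6 release and recycling genes Etf1 (-0.46) and Gspt1 (-0.24) were lower and 0 higher, and of 8 poly(A) binding genes 4 were lower, led by Larp4 (-0.64) and Larp4b (-0.43), and 1 higher, Pabpn1 (0.51). Of 5 mitochondrial elongation genes 0 were called in edgeR and in DESeq2, and 1 with library totals. Among ribosomal protein genes, Rpl12 (0.33) and Rplp0 (0.30) were the largest rises and Rpl38 (-0.54) and Rpl22 (-0.51) the largest falls.

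Among close partners of the members, Eef2k, the kinase that inhibits eEF2, was lower in T cells. It measured 19.0, 28.4 and 26.7 CPM at 10000 cells and 42.2, 36.3 and 35.8 CPM at 5 ng, with no overlap. Its log2 fold change was -0.73 (SE 0.172, adjusted p = 0.000225) there, -1.02 (SE 0.275, adjusted p = 0.00435) at 1000 cells against 1 ng and -1.48 (SE 0.367, adjusted p = 0.00273) at 500 cells against 0.5 ng. At 100 cells against 0.1 ng the adjusted p was 0.399. Eif5a, an elongation factor that relieves stalled ribosomes, was the other elongation gene lower in 10000 T cells (296 ± 13.4 against 369 ± 11.5 CPM, log2 fold change -0.43, SE 0.0561, adjusted p = 1.68e-09).

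Eef1a2, the paralog of Eef1a1 used in muscle and neurons, measured 0 to 9.19 CPM over the 23 libraries. It shares none of its 50-base stretches with Eef1a1 or any other gene. Eef1e1, a small protein of the synthetase complex, measured 14.3 to 44.9 CPM, and its adjusted p was 0.875 in 10000 T cells against 5 ng.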

How the data were processed

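The table deposited by the authors holds whole-number counts per gene symbol, without normalization. Per the submitters' processing notes, HISAT2 2.1.0, featureCounts and genome build mm8 were used; strand handling and treatment of multiply mapped reads are not given in the sources used here. Even numbers made up 57.9% to 70.7% of nonzero counts per library; the cause was not tested. CPM are counts over the column total. Groups were compared with edgeR 4.0.16 in R 4.3.3 (TMM factors, its low-count filter, the quasi-likelihood test, Benjamini-Hochberg adjustment over all genes tested, threshold 0.05). Each fit held only the libraries compared, and all 9 members passed the filter in all 13 comparisons. Slopes used log10 of the input. Lengths came from GENCODE M21 (22391 symbols, 99.6%) and promoters from RefSeq (4 of 9 members); they are on GRCm38, so no coordinate was joined to the counts. Likeness was Pearson's r with the members' mean log2(CPM + 1) among genes of at least 10 CPM.

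The members and gene lists were chosen with earlier results of these data known. Every member is named, and folds are given where it passed; of each list, counts are given and, for 10000 T cells against 5 ng, the 2 largest rises and falls with at least 10 CPM. Alternatives were DESeq2 1.42.0, its size factors in edgeR, library totals, no low-count filter, replicate number as a block, all groups of a material in 1 fit, and each library left out.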

Additional observations from a re-analysis of the deposited data

Results flagged for a closer look

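The T cell to RNA difference of Tpt1 was larger at the lowest inputs than at the highest, by 0.84 on the log2 scale (0.835801 before rounding; SE 0.162, adjusted p = 0.0320 in edgeR's test of the difference itself). Tpt1 measured 2485, 2298 and 1740 CPM at 100 cells, 968 and 1094 CPM at 0.1 ng, 2451, 2462 and 2529 CPM at 10000 cells, and 1977, 1987 and 1967 CPM at 5 ng. In replicate 3 of 100 cells the B cell, neutrophil, erythroid and macrophage genes took 2.02%, 0.229%, 0.166% and 0.158% of counts. Their part in the result was not tested. Without that library the difference was 1.07 (adjusted p = 0.000233 in edgeR). The call was lost in 6 of 11 fits with 1 library left out, namely any library of the 10000-cell or 5 ng group (adjusted p from 0.0905 to 0.120), and also with DESeq2 size factors (0.0632), library totals (0.0535) and the replicate block (0.0687). Tpt1 was not alone among related genes. In the same edgeR test 18 of 79 cytosolic ribosomal protein genes were higher and 0 lower, beside 0.899% of all genes higher.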

How the results depend on the processing

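No direction of a called member was reversed. Of 39 called log2 fold changes, 192 of 212 values under other settings stayed past the threshold and 20 did not, and 226 of 264 did with 1 library left out, 38 not. The number of members called moved as follows, and the cause was not tested. At 100 cells against 0.1 ng, 0 became 1 in DESeq2, 2 without the low-count filter and 5 with replicate number as a block. At 100 against 10000 cells, 0 became 1 in DESeq2, 1 without the filter and 3 with all groups in 1 fit. At 500 against 10000 cells, 2 became 1 in DESeq2, with library totals and with all groups in 1 fit. At 1000 against 10000 cells, 3 became 0, and at 0.5 against 5 ng 6 became 3, with all groups in 1 fit. The difference between materials across inputs went from 1 to 2 in DESeq2 and to 0 with DESeq2 size factors, library totals or the replicate block. With 1 library left out, the counts ranged from 0 to 2 (100 cells against 0.1 ng), 0 to 2 (100 against 10000 cells), 1 to 2 (500 against 10000 cells), 0 to 9 (0.1 against 5 ng), 3 to 6 (0.5 against 5 ng), 0 to 2 (1 against 5 ng), 1 to 2 (slope over cells) and 0 to 5 (difference across inputs).

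The replicate block rests on numbers alone: among 44 pairs of libraries with equal numbers, deviations from the group means correlated between -0.0260 and 0.0243. With TMM-scaled sizes the summed CPM of the members was 20607 at 500, 22042 at 1000 and 23148 at 10000 cells, 14554 at 0.1 ng and 21968 at 5 ng. With Gm10800, Gm10801, Gm21738 and Lars2 left out of the totals, a setting chosen after seeing the data, it was 21068, 23461, 24263 and 24380 from 100 to 10000 cells, and 16011, 18322, 19842 and 20766 from 0.1 to 5 ng. At 0.1 ng 2 libraries of 1737067 and 1962934 counts were available.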
